A study of Homo sapiens with 4 samples.

Results

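The 42 genes described here act in mitosis and in the G2/M transition that leads into it. They were chosen by symbol, with earlier results of these data known, and each symbol matched 1 of the 58174 rows of the deposited expression table. Expression was measured by RNA sequencing in 2 human lung cancer cell lines 48 h after transfection with a control siRNA (siCTR) or an siRNA against CDH3 (siCDH3), the gene of P-cadherin, a cell adhesion protein. The 4 groups were H1299 with siCTR, H1299 with siCDH3, HCC827 with siCTR and HCC827 with siCDH3, with 1 library per group. H1299 cells come from a lymph node metastasis of a non-small cell lung carcinoma and lack p53, and HCC827 is a lung adenocarcinoma line driven by mutant EGFR. All cells of the series were transfected, and no untransfected library was analysed here. The study's title names proliferation and migration of lung cancer cells as its subject.

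Mitotic genes are transcribed late in the cell cycle. Their promoters are held silent in G1 by the DREAM complex, which binds an element called the cell cycle genes homology region (CHR), and are activated in S and G2 by B-MYB (the product of MYBL2) and FOXM1 together with the MuvB core and with NF-Y, which binds the CCAAT box. The products then drive entry into mitosis, build the spindle, hold anaphase back until every chromosome is attached, and divide the cell. Because these transcripts are made in cycling cells, their level in a culture reflects both the share of cells in G2 and mitosis and the amount per cell, and in RNA from whole cultures fewer such cells and less RNA per cell cannot be told apart.

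Promoter sequences show what the members share beyond their names. RefSeq promoters, from 250 bases before to 50 after the transcription start on build GRCh38.p14, were found for 35 of the 42 genes, 45 promoters in all. The CHR was searched as TTTGAA or TTCGAA and the CCAAT box as CCAAT, each on both strands. A CHR was in 30 of the 45 promoters (66.7%), against 16.4% of all 35116 RefSeq promoters of the same length. A CCAAT box was in 33 (73.3%), against 34.6%, and both were in 25 (55.6%), against 6.38%. A match is only a run of letters in the window. The promoters of 5 members named in the results below are printed 5′ to 3′ on the gene's strand, with matches to either motif in capitals. AURKA, the lowest member in H1299, and FOXM1, the highest in HCC827, were among the genes with no promoter found. CDCA3 had the lowest difference in HCC827 and CDK1 is the kinase that starts mitosis. HMMR was among the lowest in H1299 and carries the CHR as an unbroken pair. PLK1 had the highest difference in H1299, and PRC1 was 1 of the few members that were higher in HCC827. Their windows are chr12:6851237-6851536 (minus strand), chr10:60778228-60778527 (plus), chr5:163460382-163460681 (plus), chr16:23678639-23678938 (plus) and chr15:90994486-90994785 (minus).
CDCA3: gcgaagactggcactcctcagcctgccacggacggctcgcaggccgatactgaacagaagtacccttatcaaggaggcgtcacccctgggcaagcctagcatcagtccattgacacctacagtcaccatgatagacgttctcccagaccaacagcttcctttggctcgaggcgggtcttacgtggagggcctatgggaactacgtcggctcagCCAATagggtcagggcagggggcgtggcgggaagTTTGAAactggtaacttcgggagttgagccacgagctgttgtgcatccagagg
CDK1: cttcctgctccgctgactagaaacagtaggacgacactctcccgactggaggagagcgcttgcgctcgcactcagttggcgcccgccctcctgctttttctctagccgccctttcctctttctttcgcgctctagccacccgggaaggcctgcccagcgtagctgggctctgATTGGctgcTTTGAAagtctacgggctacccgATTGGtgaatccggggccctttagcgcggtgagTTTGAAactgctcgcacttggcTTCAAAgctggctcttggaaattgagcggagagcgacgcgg
HMMR: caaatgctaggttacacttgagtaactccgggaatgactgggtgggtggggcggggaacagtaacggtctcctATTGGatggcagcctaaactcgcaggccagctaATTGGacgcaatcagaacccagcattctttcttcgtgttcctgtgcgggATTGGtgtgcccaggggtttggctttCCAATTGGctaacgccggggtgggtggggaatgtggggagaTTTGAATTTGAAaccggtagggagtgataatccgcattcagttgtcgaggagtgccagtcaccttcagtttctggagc
PLK1: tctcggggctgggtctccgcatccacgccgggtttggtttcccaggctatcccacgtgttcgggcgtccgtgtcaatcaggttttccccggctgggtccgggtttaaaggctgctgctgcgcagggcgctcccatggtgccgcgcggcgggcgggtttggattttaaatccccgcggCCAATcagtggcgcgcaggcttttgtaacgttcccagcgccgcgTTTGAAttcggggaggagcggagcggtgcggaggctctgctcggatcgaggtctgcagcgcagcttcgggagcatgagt
PRC1: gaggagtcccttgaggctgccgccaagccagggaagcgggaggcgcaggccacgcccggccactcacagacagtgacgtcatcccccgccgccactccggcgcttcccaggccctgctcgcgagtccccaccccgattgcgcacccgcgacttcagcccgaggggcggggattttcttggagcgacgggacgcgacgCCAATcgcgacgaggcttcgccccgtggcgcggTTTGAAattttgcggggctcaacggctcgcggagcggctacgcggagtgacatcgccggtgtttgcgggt
Counted from the transcription start, the CHR began at -3 in CDCA3, -29 in PLK1 and -20 in PRC1, with a CCAAT box upstream at -37, -73 and -53. HMMR had its pair at -28 and -22. The 27 genes with a CHR in any promoter had a median difference of -0.16 in HCC827 and -0.12 in H1299, and the 8 without one had -0.14 and -0.07, on the log2 scale defined below.

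Values are TPM, a measure of transcript abundance per length whose sum is the same in each library. Depth is not known from TPM, so no counting error can be given. The level of CDH3 itself in HCC827 was 173 TPM with siCTR and 78.8 with siCDH3, and 1.21 and 0.169 in H1299, where it was low before silencing. Mitochondrially encoded genes took 13.5% of TPM with siCTR and 16.4% with siCDH3 in H1299, and 36.2% and 34.4% in HCC827. A larger share lowers the TPM of the other genes, so it does so in HCC827 against H1299 and, within H1299, with siCDH3. Epithelial markers separated the lines in part: 6 of 6 reached a TPM of 5 in both HCC827 libraries and 3 of 6 in both H1299 libraries. In H1299 EPCAM was at 0.514 and 0.286 TPM, while KRT8 (317 and 330 TPM) and KRT18 (345 and 361) were high. Of 6 lung epithelial lineage markers, 2 reached 5 TPM in HCC827 and 0 in H1299. Of 4 mesenchymal markers, 4 reached 5 TPM in H1299 and 2, VIM and FN1, in HCC827. VIM was at 5149 TPM with siCTR and 5060 with siCDH3 in H1299, against 9.64 and 8.20 in HCC827. FN1 did not separate the lines, with 119 and 88.1 TPM in H1299 and 96.8 and 119 in HCC827. In H1299 ZEB1 (34.7 and 20.6 TPM, a log2 difference of -0.73), CDH2 (35.3 and 22.7, -0.61) and FN1 (119 and 88.1, -0.43) were lower with siCDH3 and VIM was nearly level (-0.03), and the part of this in the values of mitotic genes there was not tested. Markers of blood, endothelial and fibroblast cells were low, CD68 apart. Of 6 hematopoietic markers only CD68 reached 5 TPM, with a summed level of 122 to 143 TPM of which CD68 made nearly all. PTPRC and CD3E were listed at 0 in 3 of the 4 libraries and were at 0.0349 and 0.0468 TPM in the other. No endothelial marker of 5 reached 5 TPM (summed level 0.421 to 1.90), and of 6 fibroblast markers only COL1A1 did so, in HCC827 (summed level 3.85 to 5.92).

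All 42 members were expressed in every library. The lowest level in each was 9.50 TPM (MAD2L1) with siCTR and 6.71 (MAD2L1) with siCDH3 in H1299, and 5.67 (ESPL1) with siCTR and 5.14 (ESPL1) with siCDH3 in HCC827. All members therefore passed the filter used here (5 TPM or more in any library of the comparison) in every comparison. Together they summed to 2485 TPM with siCTR and 2325 with siCDH3 in H1299, and 1583 with siCTR and 1437 with siCDH3 in HCC827. The 5 members with the highest mean TPM were CDC25B, UBE2C, PTTG1, TPX2 and CDC20. CDC25B, a phosphatase that activates CDK1, led in HCC827 at 164 TPM in siCTR and 145 in siCDH3, and had 173 and 169 in H1299. PTTG1 (securin, which holds the enzyme separase inactive) led in H1299 siCTR at 182 TPM, with 186 in the siCDH3 library of that line, and had 78.6 and 75.3 TPM in HCC827. With 1 library per group, neighbours in this order have no spread to be judged by.

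**Figure D1:**
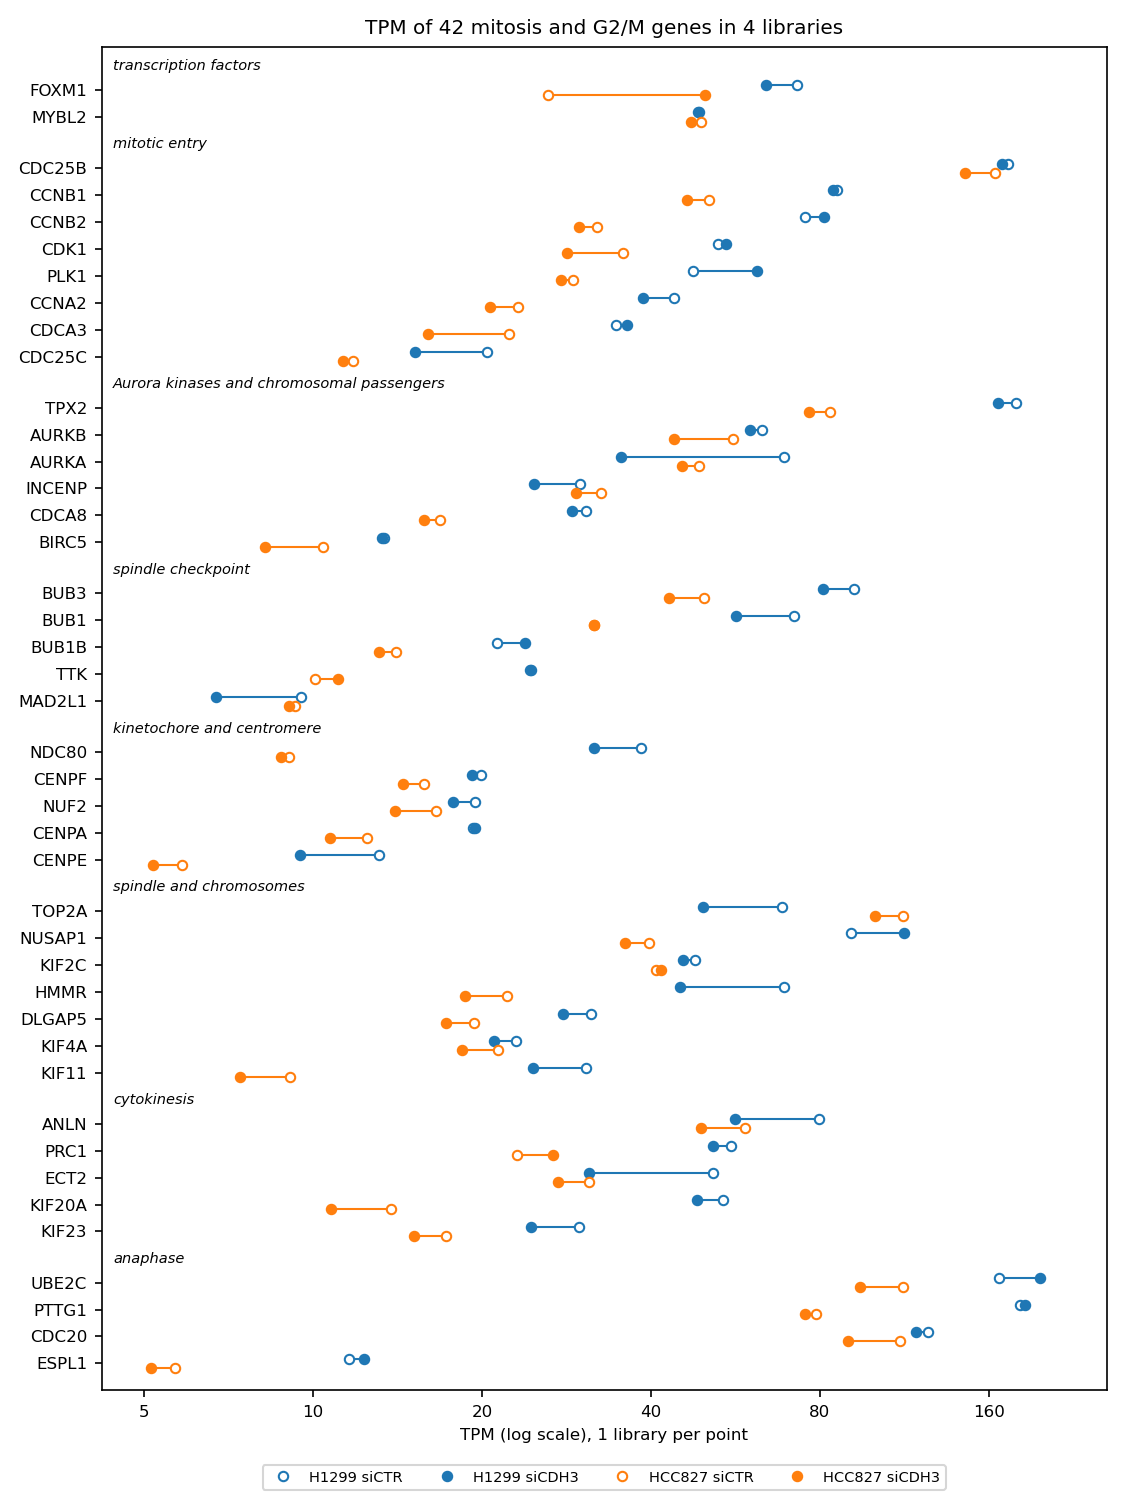
TPM (log axis) of each of the 42 members, grouped by role, in H1299 (blue) and HCC827 (orange); open circles are siCTR, filled circles siCDH3, 1 library per point, joined within a line. In HCC827 nearly every filled circle lies a little to the left of its open circle, that of FOXM1 lies far to the right (26.2 to 50.0 TPM), and in H1299 the gaps are wider and run both ways.

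The siRNA comparison asked whether these genes differed between siCDH3 and siCTR within each line. The measure was the difference of log2(TPM + 1), siCDH3 minus siCTR, where the added 1 understates the change of low genes. In HCC827 the members were slightly lower as a group. Of 42, 38 were below 0, against 42.9% of all 11043 genes, 4 were above it (57.1% of genes), and 39 were below the median of all genes, which 50% of genes are by definition. The members' median was -0.15 and that of all genes 0.03, a gap of -0.18. The interquartile range of the members was -0.22 to -0.07, and that of all genes -0.10 to 0.15. No member was at least 2-fold lower (0.833% of all genes were) or at least 2-fold higher (1.01%). At least 1.2-fold lower were 6 members, against 9.81% of all genes, and 1 was at least 1.2-fold higher, against 13.3%. With TPM computed without mitochondrial and ribosomal protein genes, 11 were at least 1.2-fold lower (13.7% of all genes).

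In H1299 the members lay, as a group, around the middle of all genes. Below 0 were 31 of 42, against 64.8% of all 11622 genes, above it 11 (35.2%), and 20 were below the median of all genes (50% of genes are). The members' median and the median of all genes were -0.10 and -0.11. Again no member was at least 2-fold lower (1.58% of all genes) or at least 2-fold higher (0.878%). At least 1.2-fold lower were 12 members (29.3% of all genes) and at least 1.2-fold higher 2 (11.2%). With the median of all genes set to 0 these were 8 (18.7%) and 4 (17.9%). With TPM computed without mitochondrial and ribosomal protein genes they were 9 (24.1%) and 3 (15.4%). The medians of the members and of all genes were then -0.04 and -0.05. Because the median of all genes in this line was below 0, single values are also given relative to it below. The 2 lines have no library in common: 19 members were below the median of all genes in both, against 26.9% of the 9724 genes tested in both. Above it in both were 2 members and 2533 of the 9724 genes. With 39 members below it in HCC827 and 20 in H1299, most of the overlap of 19 follows from the counts within each line. Across the 42 members Pearson's r between the lines was -0.03, and across all 9724 genes it was 0.13, values that describe genes, which are not independent replicates.

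**Figure D2:**
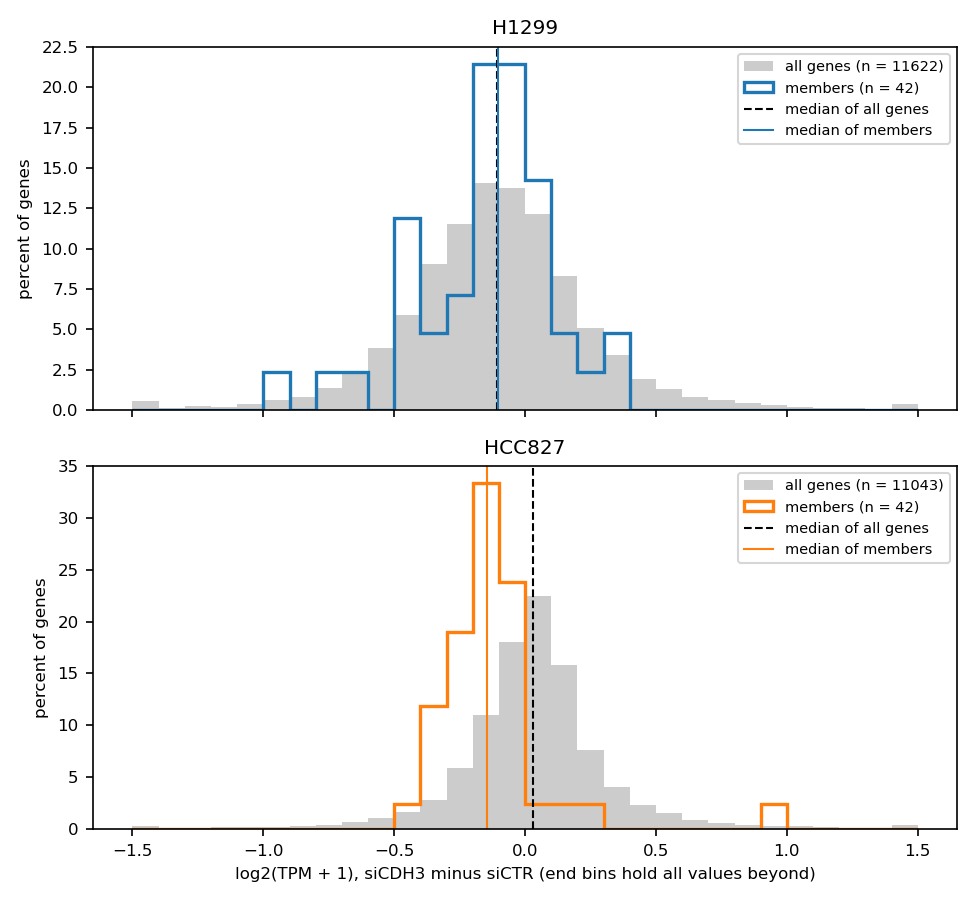
Share of genes (percent) by log2 difference, siCDH3 minus siCTR, in bins of 0.1, for all genes past the filter (grey) and the 42 members (coloured outline), with both medians as vertical lines. In H1299 the medians coincide at -0.10 and -0.11, and in HCC827 the members sit to the left of all genes, with FOXM1 alone in the bin above 0.90.

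The siRNA was tested across the lines with limma on log2(TPM + 1) of 12941 genes, with the cell line as a block and as the unit of replication. Of the 42 members, 0 had a Benjamini-Hochberg adjusted p under 0.05, and 0 had an unadjusted p under 0.05 (581 of all genes, 4.49%, had). Their adjusted p values ran from 0.950 to 0.998, and their median coefficient was -0.16, against -0.03 for all genes. The call was made for 1 of all genes (0.00773%), TNFRSF6B, which is no member and is named here because the count is 1. Without the line block 0 genes were called, both with all 4 libraries and with any 1 of them left out. The fit had 1 residual degree of freedom per gene, and the values within a line have no replicate check at all.

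The transcription factors of the program differed from each other. FOXM1, the forkhead factor that activates G2/M genes, had a TPM of 72.8 with siCTR and 64.2 with siCDH3 in H1299, and 26.2 with siCTR and 50.0 with siCDH3 in HCC827. Its differences were -0.18 in H1299 and 0.91 in HCC827, where 141 of 11043 genes had a higher one. FOXM1 was thus the highest member in HCC827 while 38 of the other 41 were lower there. Its exons share 781 bases, 15.9% of their length, with ITFG2 on the opposite strand, and whether reads were counted by strand is not given in the sources used here. ITFG2 was at 16.6 and 16.0 TPM in HCC827 and at 21.7 and 22.2 in H1299. MYBL2 (B-MYB) was nearly level in all 4 libraries, at 48.5 and 48.8 TPM in H1299 and 49.0 and 47.2 in HCC827.

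Genes of mitotic entry were lower with siCDH3 in HCC827 for 8 of 8 members, with a median of -0.14. CDCA3, which helps degrade the CDK1 inhibitor WEE1, had 34.7 TPM with siCTR and 36.3 with siCDH3 in H1299, and 22.3 with siCTR and 16.0 with siCDH3 in HCC827, the lowest difference of any member in HCC827 (-0.45; 0.06 in H1299). It shares 9.71% of its exon bases with GNB3 on the opposite strand, which was at 0.187 and 0 TPM in HCC827. CDK1, the kinase of mitotic entry, had 52.8 and 54.4 TPM in H1299 and 35.7 and 28.4 in HCC827 (-0.32). Its cyclin partners differed less in HCC827. CCNB1 had 85.8 and 84.6 TPM in H1299 and 50.7 and 46.3 in HCC827, and CCNB2 had 75.2, 81.5, 32.0 and 29.8 in the same order. CCNA2 (cyclin A) had -0.18 in H1299 and -0.16 in HCC827.
In H1299 this group was mixed, with a median of 0.01 and 6 of 8 above the all-gene median. PLK1, the polo-like kinase that activates CDK1 and matures centrosomes, had 47.5 TPM in H1299 siCTR and 61.9 in H1299 siCDH3, the highest difference of a member there (0.38, or 0.48 relative to all genes), and 29.1 and 27.7 in HCC827. CDC25C, a phosphatase that activates CDK1, went the other way, with 20.4 and 15.2 TPM in H1299 (-0.40) and 11.8 and 11.3 in HCC827. CDC25B had -0.04 in H1299 and -0.18 in HCC827.

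Aurora kinases and their partners were lower with siCDH3 in HCC827 for 6 of 6 members (median -0.13). AURKA, the centrosome and spindle kinase, had 68.9 TPM with siCTR and 35.3 with siCDH3 in H1299, and 48.6 with siCTR and 45.5 with siCDH3 in HCC827. Its difference in H1299, -0.94, was the lowest of any member in either line, and 221 of 11622 genes had a lower one there. It was -0.84 relative to the median of all genes, a scale on which FOXM1 in HCC827 was farther from 0 (0.88), and in HCC827 AURKA had -0.09. The processed pseudogene AURKAP1 was below 0.5 TPM in all 4 libraries, with 0.418 the highest. TPX2, which activates AURKA on the spindle, showed no such gap in H1299, with 179 and 166 TPM, and had 83.5 and 76.6 in HCC827.
AURKB, the catalytic subunit of the chromosomal passenger complex, had 63.1 and 60.1 TPM in H1299 and 55.9 and 43.9 in HCC827 (-0.34). BIRC5 (survivin), a second subunit, had 13.4 and 13.2 in H1299 and 10.4 and 8.21 in HCC827 (-0.31). In both, the HCC827 libraries differed more than the H1299 libraries. The scaffold INCENP had -0.26 in H1299 and -0.15 in HCC827, and CDCA8 (borealin) -0.08 and -0.09.

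Spindle checkpoint genes, which delay anaphase while kinetochores are unattached, were the group nearest to level in HCC827 (median -0.03, 4 of 5 below the all-gene median). BUB1, a checkpoint kinase, had 71.9 and 56.7 TPM in H1299 (-0.34) and 31.6 and 31.6 in HCC827. MAD2L1, which encodes MAD2, the inhibitor of CDC20, had 9.50 and 6.71 in H1299 (-0.44) and 9.28 and 9.07 in HCC827. TTK (MPS1, the kinase at the head of the checkpoint) had 24.4 and 24.3 in H1299 and 10.1 and 11.1 in HCC827 (0.13). BUB1B (BUBR1) had 21.3 and 23.9 in H1299 (0.16) and 14.1 and 13.1 in HCC827, and BUB3 had -0.18 and -0.20. No direction was therefore common to the 5 genes.

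Kinetochore and centromere genes were lower with siCDH3 in HCC827 for 5 of 5 members, between -0.22 (NUF2) and -0.04 (NDC80), both of which encode subunits of the microtubule-binding NDC80 complex. In H1299 they ran from -0.43 for CENPE, a kinesin motor of the kinetochore, with 13.1 and 9.49 TPM, to 0.01 for CENPA, the centromeric histone H3 variant. CENPF, a large kinetochore protein, had -0.05 in H1299 and -0.12 in HCC827. CENPA had 12.5 and 10.7 TPM in HCC827 and shares 6.96% of its exon bases with SLC35F6 on the same strand, which was at 31.0 and 8.19 TPM in HCC827, so the value of CENPA there is uncertain.

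Spindle and chromosome genes were lower with siCDH3 in HCC827 for 6 of 7 members (median -0.16). TOP2A, the topoisomerase that untangles sister chromatids, had 68.4 TPM with siCTR and 49.4 with siCDH3 in H1299, and 112 with siCTR and 100.4 with siCDH3 in HCC827, and so was lower with siCDH3 in both lines (-0.46 and -0.16). HMMR, a spindle and hyaluronan-binding protein, had 69.2 and 45.1 TPM in H1299 (-0.61, or -0.50 relative to all genes) and 22.1 and 18.7 in HCC827 (-0.23). NUSAP1, a microtubule-bundling protein, went the other way in H1299, with 91.0 and 113 TPM (0.31), and had 39.7 and 36.0 in HCC827 (-0.14). In GENCODE release 29, 62.2% of its exon bases are shared with AC087721.2, a gene on the same strand for which the deposited data hold no TPM. The kinesin genes KIF11 (which pushes spindle poles apart) and KIF4A (a chromosome-bound motor) were lower in both lines, KIF11 at -0.30 and -0.26 and KIF4A at -0.13 and -0.21. DLGAP5, a spindle assembly factor, had -0.16 in both, and KIF2C, a microtubule depolymerase, had 47.9 and 45.6 TPM in H1299 and 40.9 and 41.8 in HCC827.

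Cytokinesis genes had a median of -0.27 in H1299, with 5 of 5 members below 0 and 4 below the median of all genes. Relative to all genes it was -0.17, and with the trend on length and GC content described below removed it was -0.06. ECT2, the exchange factor that activates RhoA at the cleavage furrow, had 51.7 TPM with siCTR and 31.1 with siCDH3 in H1299, and 31.0 with siCTR and 27.3 with siCDH3 in HCC827 (-0.72 and -0.17). ANLN (anillin, a scaffold of the contractile ring) had 79.7 and 56.4 TPM in H1299 (-0.49) and 58.8 and 49.2 in HCC827 (-0.25). KIF20A, a kinesin of the midzone, had 53.7 and 48.3 in H1299 (-0.15) and 13.8 and 10.8 in HCC827 (-0.33). KIF23, the motor of the centralspindlin complex, had -0.27 and -0.18. PRC1, which bundles midzone microtubules, stood apart in HCC827, where it was higher with siCDH3, at 23.1 and 26.7 TPM (0.20), and it had 55.6 and 51.7 in H1299. Of its exon bases, 57.6% are shared with AC068831.7, a gene on the same strand in GENCODE release 29 for which the deposited data hold no TPM.

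Genes of anaphase were lower with siCDH3 in HCC827 for 4 of 4 members (median -0.18) and lay above the median of all genes in H1299 for 4 of 4. CDC20, the activator of the anaphase-promoting complex, had 125 and 119 TPM in H1299 and 111 and 90.0 in HCC827 (-0.30). UBE2C, the ubiquitin-conjugating enzyme of that complex, had 167 TPM with siCTR and 197 with siCDH3 in H1299, and 112 with siCTR and 94.5 with siCDH3 in HCC827, 0.24 in H1299 and -0.25 in HCC827. PTTG1 had 0.03 and -0.06, and ESPL1 (separase, which cuts cohesin) 0.09 and -0.12. In sign, 27 of the 42 members were lower in both lines, against 29.6% of the 9724 genes tested in both, and 0 were higher in both, against 20.8%. With 38 members below 0 in HCC827 and 31 in H1299, no smaller overlap was possible, so it shows no agreement between the lines beyond those counts. Higher in H1299 and lower in HCC827 were 11 (13.6% of genes), and 4 were the reverse (36.0%). The difference between the lines was not tested, since each line has 1 library per siRNA.

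**Figure D3:**
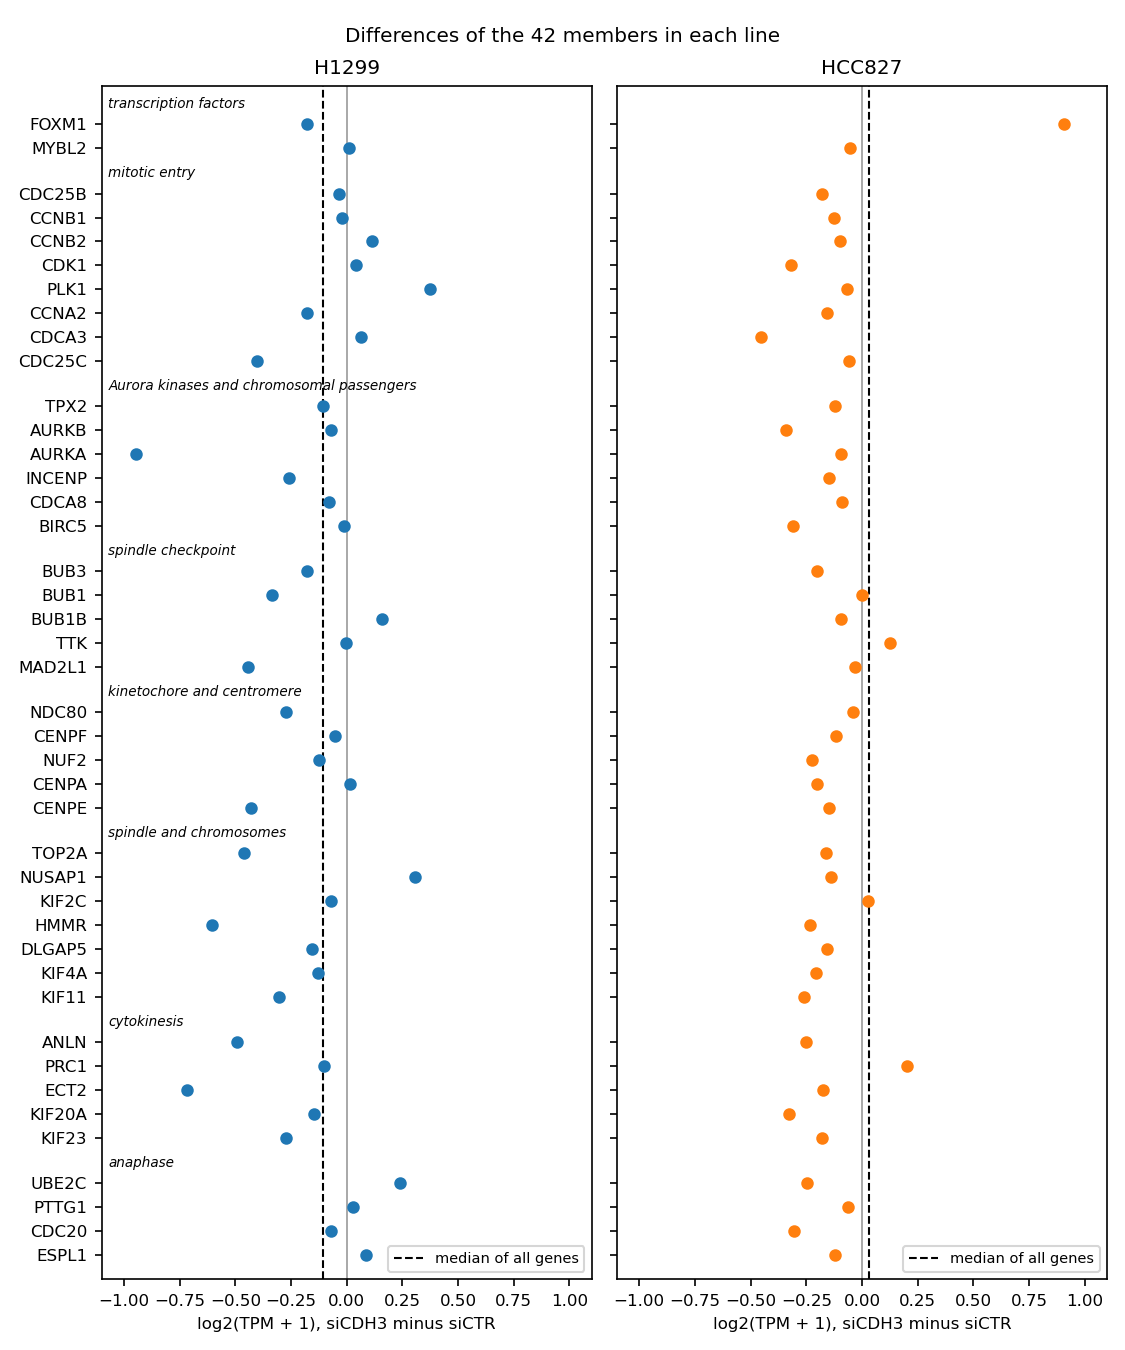
Difference of log2(TPM + 1), siCDH3 minus siCTR, of each member in H1299 (left) and HCC827 (right), grouped by role; the grey line is 0 and the dashed line the median of all genes (-0.11 and 0.03). In HCC827 the points lie in a narrow column left of the dashed line, except FOXM1, PRC1 and TTK, and in H1299 they spread from -0.94 (AURKA) to 0.38 (PLK1).

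Base composition varied with the H1299 differences. Over the 42 members, Pearson's r between the difference in H1299 and the GC content of the gene's longest transcript was 0.40, and with the log of its length it was -0.27. In HCC827 these were 0.14 and 0.14. Over all 11610 genes of H1299 with a transcript in the annotation, the same correlations were 0.30 and -0.19, and a joint trend on both took 10.9% of the variance of the differences, against 0.316% in HCC827. Points in these correlations come from the same pair of libraries. With that trend removed, the H1299 values relative to the median of all genes were -0.82 for AURKA, -0.42 for ECT2, -0.30 for HMMR, -0.22 for ANLN, -0.16 for TOP2A and -0.16 for MAD2L1. Before, they were -0.84, -0.61, -0.50, -0.38, -0.35 and -0.34, so AURKA was nearly as low and the others were nearer to the rest of the genes. PLK1 was at 0.40 and NUSAP1 at 0.49. At least 1.2-fold lower were then 4 members (15.0% of all genes). With only the median of all genes set to 0 there were 8 (18.7%), against 12 before either step. The members' median relative to all genes was then 0.02 in H1299 and -0.17 in HCC827, where 39 of 42 members were still below the median. The part of base composition in the H1299 values was not tested further.

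**Figure D4:**
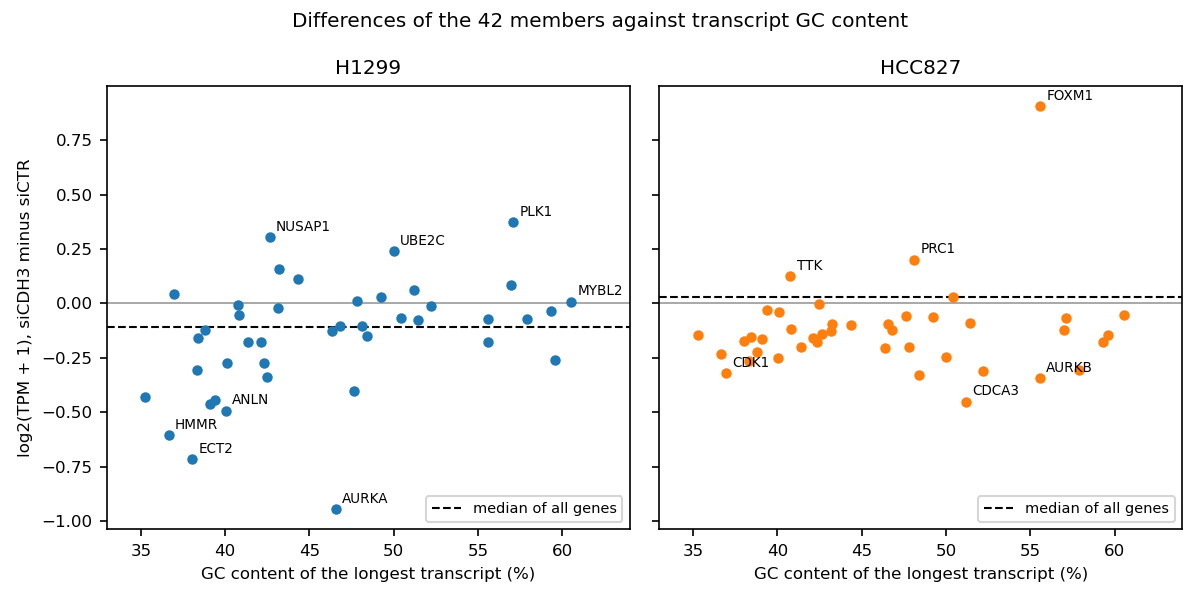
Difference of log2(TPM + 1), siCDH3 minus siCTR, against the GC content (percent) of the longest transcript for the 42 members in H1299 (left) and HCC827 (right); the dashed line is the median of all genes. In H1299 the lowest genes other than AURKA (ECT2, HMMR, ANLN) have low GC content, and in HCC827 the points show no such slope (r of 0.40 and 0.14).

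Other genes of the pathway, 104 in 7 lists, were compared in the same way. Of the 97 tested in HCC827, 70 were below the median of all genes, with a median difference of -0.09, 14 were at least 1.2-fold lower and 10 at least 1.2-fold higher. Of the 101 tested in H1299, 69 were below it, with a median of -0.19, 38 were at least 1.2-fold lower and 4 at least 1.2-fold higher. limma called 0 of 102 for the siRNA, where 2 had an unadjusted p under 0.05. The shares of all genes past these rules are those given above.

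MuvB, DREAM and B-MYB partner genes, the regulators named in the background, had medians of -0.34 in H1299 (8 of 11 below the median of all genes) and 0.01 in HCC827 (7 of 11). The MYB family gene MYBL1 had 38.0 and 23.9 TPM in H1299 (-0.65), and the MuvB subunit genes LIN52 and LIN54 had -0.59 and -0.42. In HCC827 the MuvB subunit genes LIN37 (3.61 and 6.55 TPM, 0.71) and RBBP4 (30.6 and 47.7, 0.62) were higher with siCDH3, beside FOXM1. LIN37 passed the filter of 5 TPM there only through the siCDH3 library, where it was high. E2F4, the repressor E2F of DREAM, was lower in HCC827 (107 and 85.5, -0.32). Entry kinases, phosphatases and their regulators had medians of -0.17 in H1299 and -0.13 in HCC827, each with 9 of 12 below the median of all genes. The centrosomal kinase genes NEK2 and PLK4 were lower in both lines, NEK2 at -0.42 in H1299 and -0.29 in HCC827 and PLK4 at -0.42 and -0.29. ARPP19, an inhibitor of the phosphatase that opposes CDK1, had -0.47 in H1299, and CDC25A, a phosphatase that activates CDKs, had 5.13 and 7.53 TPM in HCC827 (0.48).

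The anaphase-promoting complex list had medians of -0.11 and -0.07, with 9 of 17 and 12 of 17 genes below the median of all genes in H1299 and HCC827. Its RING subunit gene ANAPC11 differed in sign between the lines, at 35.2 and 52.9 TPM in H1299 (0.58) and 40.2 and 27.4 in HCC827 (-0.54). The inhibitor FBXO5 (EMI1) had -0.50 in H1299, ANAPC13 -0.43 there, ANAPC2 -0.40 in HCC827 and ANAPC5 0.38 there. Other kinetochore and centromere genes had medians of -0.20 (17 of 22 below) and -0.10 (16 of 20 below). HJURP, the chaperone that loads CENPA, was the only gene of the 104 past 2-fold on the log2(TPM + 1) scale in either line, at 15.9 TPM in H1299 siCTR and 52.8 in H1299 siCDH3 (1.67), and had 15.4 and 12.9 in HCC827. The kinetochore genes KNL1 (8.35 and 3.99 TPM, -0.91) and SKA1 (10.1 and 5.06, -0.87) were lower in H1299. KNL1 passed the filter of 5 TPM there only through the siCTR library. CENPK (18.3 and 11.7 TPM, -0.60) and CENPU (-0.40) were lower in HCC827, where ZW10, a checkpoint protein gene, was higher (0.50).

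Cohesin and its protectors, which hold sister chromatids together, had the lowest list median in H1299, -0.38. There 12 of 12 genes were below 0 (64.8% of all genes were) and 10 below the median of all genes, -0.11. The H1299 medians of these lists were not computed with the length and GC trend removed. In HCC827 cohesin and its protectors were near level (-0.03, 6 of 12 below). The ring subunit gene SMC1A had 23.3 and 12.2 TPM in H1299 (-0.88), STAG2 54.1 and 32.9 (-0.70) and PDS5B 12.2 and 8.13 (-0.54). In HCC827 PDS5B had -0.25, the cohesin release factor WAPL -0.24 and SGO2 (shugoshin) -0.15. Condensin genes had medians of -0.15 (6 of 8 below) and -0.11 (7 of 8 below), with SMC4 at -0.44 in H1299 and -0.13 in HCC827, NCAPH at -0.18 and -0.15, NCAPD3 at -0.17 in H1299 and NCAPG2 at -0.17 in HCC827. Other spindle and cytokinesis genes had medians of -0.23 (10 of 19 below) and -0.14 (13 of 17 below). DEPDC1 had 21.1 and 10.1 TPM in H1299, just short of 2-fold on the log2(TPM + 1) scale but not by the TPM themselves. The mitotic kinase gene PBK had -0.55 there and the helicase gene PIF1 0.61 (4.63 and 7.61 TPM). PIF1 passed the filter of 5 TPM in H1299 only through the siCDH3 library, where it was high. RACGAP1, the centralspindlin partner of KIF23, was higher in HCC827 (25.2 and 33.6 TPM, 0.40), and the kinesin gene KIF18A (-0.30) and CKAP2 (-0.28) were lower.

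The lines were then compared to describe how much of the program each expressed. Of the 42 members, 39 had a lower TPM in HCC827 siCTR than in H1299 siCTR, against 64.3% of all 12601 genes, and 30 were below the median of all genes (50% of genes are). At least 1.2-fold lower were 32 members, against 54.8% of all genes, and at least 2-fold lower 13, against 27.8%, and none was at least 2-fold higher, against 13.5%. The members' median was -0.71 and that of all genes -0.39, a gap of -0.31. When TPM was computed without mitochondrial and ribosomal protein genes, the median of all genes moved to 0.06 and that of the members to -0.29, a gap of -0.35. Such a rescaling multiplies every gene of a library alike, so the gap could change only through the added 1 and the genes that enter. At least 1.2-fold lower were then 22 members (38.6% of all genes) and at least 1.2-fold higher 6 (42.5%). NDC80 had the lowest value, 38.4 TPM in H1299 siCTR and 9.04 in HCC827 siCTR (-1.97), followed by KIF20A (53.7 and 13.8, -1.89), KIF11 (30.7 and 9.09, -1.65) and HMMR (69.2 and 22.1, -1.60). Without that rescaling TOP2A was the only member at least 1.2-fold higher in HCC827 (27.3% of all genes were), at 112 against 68.4 TPM (0.71), and INCENP (0.12) and MYBL2 (0.02) were the others above 0.

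In the same limma fit the line term, over both siRNAs, called 28 of the 42 members (62.9% of all 12941 genes were called), 27 of them lower in HCC827 (41.3% of all genes) and 1, TOP2A, higher (21.5%). At an unadjusted p under 0.05 it held 29 members and 67.3% of all genes. The median coefficient of the members was -0.77, against -0.31 for all genes. KIF20A had a coefficient of -1.98 with an adjusted p of 0.00054 by limma, and NDC80 -1.86 with 0.00072. FOXM1 passed narrowly, at -0.90 with an adjusted p of 0.048 by limma. With TPM computed without mitochondrial and ribosomal protein genes, 18 members were called, 16 of them lower (27.8% of all genes). With no filter on low TPM, 51 genes and 0 members were called. With any 1 library left out, in a fit with no block, fewer genes and fewer members were called than in the fit of all 4 libraries. Such a fit has only 1 library of 1 line and also lacks the block, so the effects of these steps cannot be told apart. Libraries of a line differ in siRNA and nothing in the labels says that they came from separate cultures, so these p values measure only the spread between these 4 libraries.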

How the data were processed

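Per the labels, total RNA of H1299 and HCC827 was sequenced with standard Illumina libraries. The authors deposited TPM per gene, 1 column per library, and the build in the submitters' processing notes is hg19. No source used here gives the aligner, the counter or the strandedness. From the TPM values, log2(TPM + 1) was taken where any library of a comparison reached 5 TPM, and siCDH3 minus siCTR computed per line, with 2-fold and 1.2-fold size rules. All 4 libraries were fitted in limma 3.58.1 (R 4.3.3) with cell line as a block, which pairs the libraries because the labels name the line of each, and Benjamini-Hochberg adjustment over 12941 genes. Transcript length, GC content and exon overlaps came from GENCODE release 29, a later build, so none of its coordinates is printed, and promoters from RefSeq. The members, lists, rules and tests were chosen with earlier results of these data known. Named genes were FOXM1, MYBL2, the 6 lowest and 4 highest members per line, the 5 highest in TPM, and up to 3 genes per further list and line. Others were named to complete each role. limma was tested on simulated data for the siRNA comparison over 12941 genes, where it recovered 100% of 100 genes changed 2-fold and 100% of 100 changed 4-fold, with 5 false calls. The test data had 1 spread for all genes, so this does not give the power in the real libraries.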

Additional observations from a re-analysis of the deposited data

Results flagged for a closer look

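Of the members, 5 had opposite signs in the 2 lines and were at least 1.2-fold apart between siRNAs in at least 1 line. The share of all genes past this joint rule was not computed. By sign alone, 11 members were higher in H1299 and lower in HCC827 (13.6% of 9724 genes), and 4 were the reverse (36.0%). The difference between the lines was not tested. Taken as HCC827 minus H1299 on the log2(TPM + 1) scale, it was 1.09 for FOXM1, which was higher with siCDH3 in HCC827 and lower in H1299. In H1299 FOXM1 had -0.18, or -0.07 relative to the median of all genes. The gap between the lines was -0.52 for CDCA3, -0.45 for NUSAP1, -0.44 for PLK1 and -0.36 for CDK1. These were lower with siCDH3 in HCC827 and higher in H1299. However, CDCA3 (0.06) and CDK1 (0.04) in H1299 and PLK1 (-0.07) in HCC827 differed by less than 0.1.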

How the results depend on the processing

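A value with no test was held to have moved when it changed by at least 0.1 on the log2 scale. The members' median in H1299, -0.10, changed sign with the median of all genes set to 0 (0.00245) and with the length and GC trend removed (0.0150), and was -0.000834 with quantile normalization. In the siCTR comparison of the lines it was -0.29 with TPM computed without mitochondrial and ribosomal protein genes, -0.37 with quantile normalization and -0.31 with the median of all genes set to 0. In HCC827 the members' median relative to all genes stayed between -0.19 and -0.15 over all 10 settings. It was -0.18 without FOXM1, an alternative chosen after seeing the data. Of H1299 members, 31 were below the median of all genes with no filter, where that median is 0. At least 1.2-fold higher were 4 with quantile normalization (18.0% of all genes) and 4 with the median set to 0 (17.9%). With the length and GC trend removed, 5 were at least 1.2-fold higher (15.3% of all genes) and 4 at least 1.2-fold lower (15.0%). A 1.5-fold rule in place of 2-fold took 3 lower members in H1299 and 1 higher in HCC827. The share of all genes past 1.5-fold was not computed, so these counts have no background. In HCC827 a filter at TPM 20 left fewer members. Of those left, 24 were below the median of all genes, which is all but FOXM1 and PRC1. Without mitochondrial and ribosomal protein genes, 11 were at least 1.2-fold lower there (13.7% of all genes). For 24 named members, 0 of 211 values moved by 0.1 or more in HCC827 and 48 of 214 did in H1299, 24 of these by setting the median of all genes to 0. Of those past 1.2-fold, 0 changed sign.

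With no replicate block (cell line left out of the fit), limma called 0 genes for the siRNA and no member. It also called 0 with no filter, with quantile normalization and without mitochondrial and ribosomal protein genes. With each library left out, fitted without the block because no residual degree of freedom is left with it, the siRNA calls were 0 to 0. Members called for the siRNA were 0 under all of these. The line term called 5088 genes with a filter at TPM 20 and 51 with no filter, where 0 members and 0 lower members were called. Without mitochondrial and ribosomal protein genes it called 18 members, 16 of them lower. With each library left out it called 4802 to 7666 genes, 13 to 26 members and 13 to 25 lower members, the lowest without the HCC827 siCTR library (4802 genes, 17 members, all lower) and the HCC827 siCDH3 library (4843 genes, 13 members, all lower). The causes were not tested. TPM keeps no depth, so precision at low TPM is unknown.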
